A study of Mus musculus with 6 samples.

Results

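The 44 genes described here encode enzymes and partner proteins that write, erase and read chromatin marks or move nucleosomes. They were taken by symbol from a list, with case ignored and older names counted. No measured value set the list, but it was chosen with earlier results of these data known. They are 44 of the 22544 genes in the deposited table. All 44 reached 1 FPKM in at least 3 of the 6 libraries and were tested, among 10840 genes in all. FPKM counts fragments scaled to transcript length and to the size of the library, here summed over the transcripts of a gene. Differences are on the scale log2(FPKM + 1), Blimp-1 minus empty vector, which understates the change of low genes.

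Total RNA came from Th0 cells, which are CD4 T cells activated under neutral conditions, of WT mice of the strain C57/BL6, with 3 libraries of cells given a MigR1 retrovirus with Blimp-1 cDNA and 3 of cells given empty MigR1. Naive cells (CD4+ CD44lo CD62L+ CD25neg) of spleen and lymph node were activated for 36 hours with plate-bound anti-CD3 and anti-CD28, in the presence of anti-IFN-γ and anti-IL-4, transduced and kept for 2 days more. A further label gives the activation as 3 days. GFP+ cells, the ones that carry a vector, were sorted in both groups, so the empty vector cells were also activated and transduced, and the labels name 3 independent biological replicates without saying whether a replicate number stands for shared mice or a shared day. Blimp-1 was supplied by a retroviral cDNA, and its protein level was not among the data.

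Blimp-1, encoded by Prdm1, is a zinc finger repressor that drives the end stage of B and T cell differentiation and represses its targets partly by bringing histone-modifying enzymes to them. Polycomb complexes PRC2 and PRC1 place methyl groups on lysine 27 of histone H3 and ubiquitin on histone H2A and keep genes of other T cell lineages silent. DNA methyltransferases copy or add methyl groups on cytosine, TET enzymes start their removal, and acetyltransferases and deacetylases set histone acetylation at enhancers and promoters. The comparison asks whether forced Blimp-1 changes the mRNA levels of this machinery in activated CD4 T cells.

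Prdm1 had 9.91, 12.8 and 9.45 FPKM in Blimp-1 replicates 1, 2 and 3, against 0.996, 2.03 and 1.38 FPKM in empty vector replicates 1, 2 and 3. Its mean was 10.7 ± 1.83 FPKM with Blimp-1 and 1.47 ± 0.525 FPKM with the empty vector (SD, n = 3 each), a 7.30-fold ratio. The log2 difference was 2.26 (SE 0.19), and limma's adjusted p was 0.0561 with the vector as the only term and 0.00492 with the replicate number as a block. The vectors did not overlap. FPKM of a transcript annotation does not tell vector RNA from RNA of the chromosomal gene.

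Estimated depth was 46.3, 50.0 and 36.6 M reads in Blimp-1 replicates 1, 2 and 3 and 19.5, 41.5 and 18.6 M in empty vector replicates 1, 2 and 3. Each library had 10699 to 10816 genes at 1 FPKM or above. On the first principal component, which held 52.7% of all variance, empty vector replicate 3 was at 33.6 and the other libraries between -22.8 and 12.5. The CD4 T cell genes Cd3e, Cd3g, Cd4, Cd5 and Cd28 summed to 1273 to 1421 FPKM with Blimp-1 and 1221 to 1527 FPKM with the empty vector, while Trac was not among the genes matched. Cd8a was at 0.100 to 0.169 FPKM with Blimp-1 and 0.133 to 0.167 FPKM with the empty vector, although Cd8b1 had 7.83 to 10.9 FPKM with Blimp-1 and 7.01 to 10.2 FPKM with the empty vector. Myeloid genes (Lyz2, Csf1r, Cd14 and Itgam) summed to 1.08 to 1.34 FPKM with Blimp-1 and 0.336 to 1.35 FPKM with the empty vector. NK cell genes (Ncr1, Klrb1c and Gzma) summed to 0.420, 7.58 and 0.728 FPKM in Blimp-1 replicates 1, 2 and 3, against 0.629, 1.75 and 0.420 FPKM in empty vector replicates 1, 2 and 3. The B cell genes Cd79a, Cd79b and Ms4a1 summed to 1.45, 5.39 and 1.94 FPKM in Blimp-1 replicates 1, 2 and 3, against 1.76, 4.45 and 1.63 FPKM in empty vector replicates 1, 2 and 3. Both of these sums were highest in replicate 2 of each vector.

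None of the 44 genes passed the test. In limma with the vector as the only term, 0 of 44 were called at an adjusted p below 0.05, beside 0 of 10840 genes, or 0% of all genes tested. No member had an unadjusted p below 0.05 in that fit, against 122 genes in all, 72 higher and 50 lower. With the replicate number as a block, again 0 of 44 were called, beside 2 of 10840 genes (0.0185%), 1 of them Prdm1. The lowest adjusted p of a member was 0.998 without the block and 0.143, for Bmi1, with it. In 39 of 44 members (88.6%) the mean log2 difference was under 0.25 either way, as it was in 85.5% of all genes tested. The median log2 difference over the members was 0.06, against -0.01 over all genes tested. Within pairs of equal replicate number the members' median was 0.08, 0.04 and 0.07 in pairs 1, 2 and 3. These values are shares of the RNA pool of sorted cells in bulk, so fewer cells of a type and less RNA per cell cannot be told apart.

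The members leaned towards higher values with Blimp-1 in the direction of their pair differences. All 3 pairs were higher with Blimp-1 in 21 of 44 members (47.7%), beside 22.9% of all genes tested, and all 3 were lower in 8 of 44 (18.2%), beside 22.8%. No overlap between the vectors, with Blimp-1 higher, was found in 2 members (Suz12 and Chd4), beside 2.29% of all genes, and with Blimp-1 lower in 1 (Kat2a), beside 2.34%. In the blocked fit 8 members had an unadjusted p below 0.05 and were higher with Blimp-1 (18.2%, beside 9.77% of all genes). These were Ezh1, Ezh2, Bmi1, Rnf2, Kmt2a, Kdm5a, Sirt1 and Chd4. The lower ones were Uhrf1 and Kat2a, 2 of 44 (4.55%, beside 10.7% of all genes). None of these 10 passed after adjustment over all genes. The list was chosen with earlier results of these data known, so the lean was not tested.

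**Figure D1:**
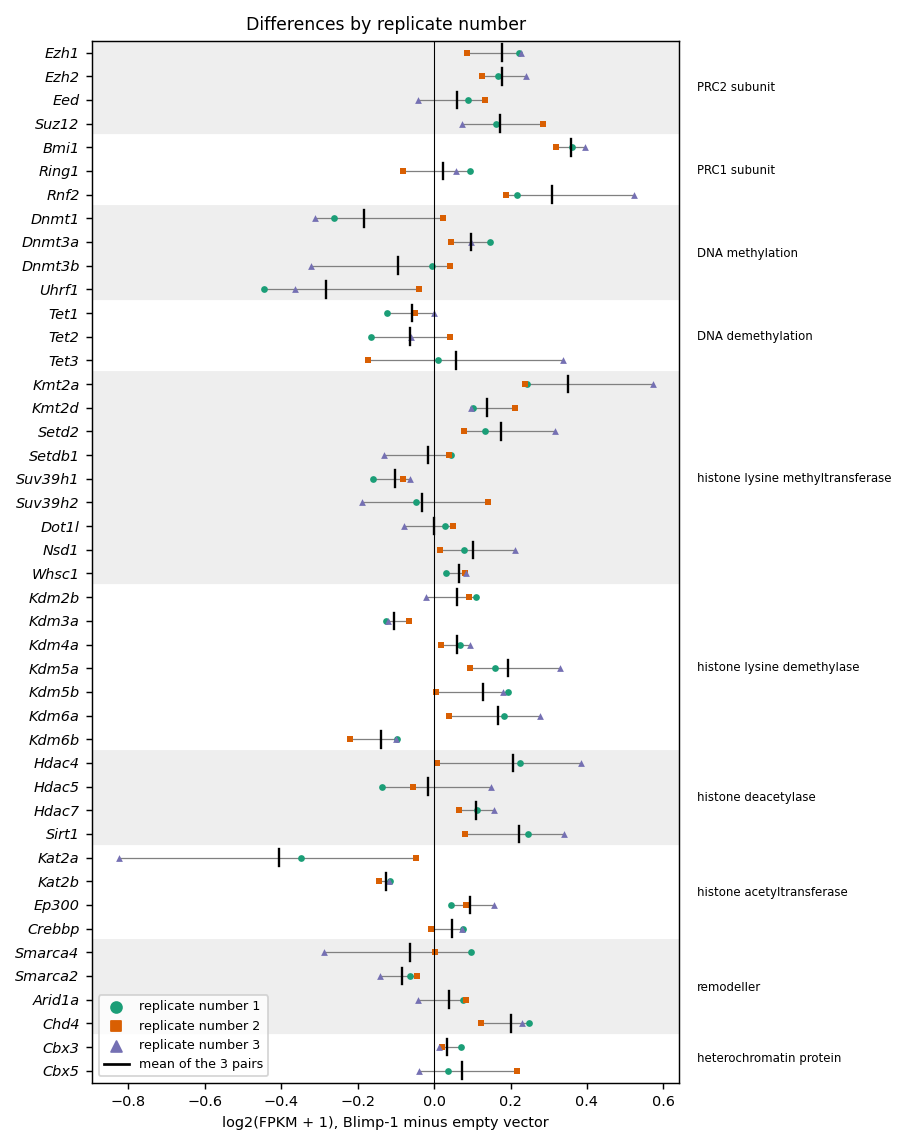
Difference in log2(FPKM + 1), Blimp-1 minus empty vector, for each of the 44 genes, ordered by role. Each coloured symbol is 1 pair of libraries of equal replicate number, and the black bar is the mean of the 3 pairs. Bmi1 has 3 close positive values, Kat2a a wide negative spread, and most bars lie within 0.25 of 0.

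Among the PRC2 subunits, Ezh1 and Ezh2, the alternative catalytic subunits that methylate lysine 27 of histone H3, were higher with Blimp-1 in every pair, by 0.22, 0.08 and 0.23 for Ezh1 and 0.17, 0.13 and 0.24 for Ezh2. Ezh1 averaged 37.7 ± 7.49 FPKM with Blimp-1 and 33.2 ± 6.68 FPKM with the empty vector (SD, n = 3 each). Ezh2 averaged 74.8 ± 18.1 FPKM with Blimp-1 and 65.7 ± 14.4 FPKM with the empty vector. Their adjusted p in the blocked limma fit was 0.225 and 0.208. Without both libraries numbered 3 that fit gave 0.15 for each. Without the block, Ezh1 was at 0.01 without empty vector replicate 3 and 0.04 without Blimp-1 replicate 1, and Ezh2 at -0.01 without empty vector replicate 2, 0.07 without Blimp-1 replicate 1 or Blimp-1 replicate 3 and 0.40 without Blimp-1 replicate 2. The scaffold subunit Suz12 had 47.0, 43.1 and 42.0 FPKM in Blimp-1 replicates 1, 2 and 3, against 41.9, 35.2 and 39.9 FPKM in empty vector replicates 1, 2 and 3. All 3 Blimp-1 libraries lay above all 3 empty vector libraries, by a margin of 42.0 to 41.9 FPKM at the closest. The log2 difference of Suz12 was 0.17 (SE 0.12), with an adjusted p of 0.998 without the block and 0.246 with it. Eed, which reads the methyl mark, differed by 0.06, with pair 3 slightly below 0.

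The PRC1 subunits held the largest positive difference among the 44. Bmi1, the Polycomb ring finger protein that partners the ubiquitin ligase, had 9.38, 9.79 and 7.44 FPKM in Blimp-1 replicates 1, 2 and 3, against 7.09, 7.65 and 5.42 FPKM in empty vector replicates 1, 2 and 3. Each Blimp-1 library was above the empty vector library of its number, but Blimp-1 replicate 3 lay below empty vector replicate 2, so the vectors overlapped. The pair differences were 0.36, 0.32 and 0.40, with a mean of 0.36 and a 95% interval of -0.03 to 0.75 without the block and 0.20 to 0.52 with it. Mean FPKM was 1.32-fold higher with Blimp-1. The adjusted p in limma was 0.998 without the block and 0.143 with it.

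Rnf2, the catalytic ligase Ring1b, had 23.2, 20.0 and 17.3 FPKM in Blimp-1 replicates 1, 2 and 3, against 19.8, 17.4 and 11.8 FPKM in empty vector replicates 1, 2 and 3. It followed the same order in both vectors, 1 above 2 above 3, and the vectors overlapped. Its mean difference of 0.31 (blocked 95% interval 0.09 to 0.53, adjusted p = 0.174) was 0.10 without empty vector replicate 3. With both libraries numbered 3 left out of the blocked fit, Rnf2 was at 0.20. Ring1, the paralogous ligase, differed by 0.02, with pair 2 of the opposite sign.

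Among the genes of DNA methylation, Uhrf1 and Dnmt1, whose products act at the replication fork, had negative mean differences, and none of the 4 genes was called. Uhrf1, which reads hemimethylated DNA and brings in Dnmt1, had 27.9, 21.0 and 49.7 FPKM in Blimp-1 replicates 1, 2 and 3, against 38.4, 21.6 and 64.2 FPKM in empty vector replicates 1, 2 and 3. Its level ranged more widely between replicate numbers than between vectors, and the vectors overlapped. The pair differences were -0.45, -0.04 and -0.36, with a mean of -0.28 and an adjusted p of 0.998 without the block and 0.201 with it. Without empty vector replicate 3 the value without the block was 0.09, of the opposite sign. That fit keeps Blimp-1 replicate 3, so the replicate numbers are unequal between the vectors. With both libraries numbered 3 left out of the blocked fit, Uhrf1 was at -0.24 (limma's adjusted p = 0.0760). Dnmt1, the maintenance methyltransferase, falls outside the rule for printing every library and was added after its values were seen, for its order by replicate number. It had 35.8, 34.5 and 53.9 FPKM in Blimp-1 replicates 1, 2 and 3, against 43.1, 33.9 and 67.1 FPKM in empty vector replicates 1, 2 and 3. Pairs 1 and 3 were lower with Blimp-1, by -0.26 and -0.31, and pair 2 was at 0.02.

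Dnmt3a, a de novo methyltransferase, averaged 8.67 ± 0.344 FPKM with Blimp-1 and 8.05 ± 0.281 FPKM with the empty vector, a log2 difference of 0.10. The sign depended on the transcripts counted, with -0.38 when those without a deposited symbol were left out and -0.15 for the most abundant transcript alone. Dnmt3b was near the limit for testing, at 1.84 ± 0.129 FPKM with Blimp-1 and 2.04 ± 0.393 FPKM with the empty vector. Transcripts with no symbol in the deposited table, assigned here by their RefSeq accession, gave 27.9% of the FPKM of Dnmt3a and 64.2% of that of Dnmt3b. Of the TET dioxygenases, which oxidise methylcytosine, Tet2 averaged 14.4 ± 3.32 FPKM with Blimp-1 and 15.3 ± 4.39 FPKM with the empty vector. Tet3 averaged 12.2 ± 1.68 FPKM with Blimp-1 and 11.99 ± 3.66 FPKM with the empty vector. Tet1 was lowest of the 3, at 1.59 ± 0.203 FPKM with Blimp-1 and 1.70 ± 0.164 FPKM with the empty vector. The differences of Tet1, Tet2 and Tet3 were -0.06, -0.06 and 0.06.

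Among the 9 histone lysine methyltransferases, Kmt2a differed most. Kmt2a (Mll1), which methylates lysine 4 of histone H3, had 35.8, 45.0 and 35.01 FPKM in Blimp-1 replicates 1, 2 and 3, against 30.1, 38.0 and 23.2 FPKM in empty vector replicates 1, 2 and 3. Blimp-1 was higher in every pair, and replicate 2 was the highest library of each vector. The pair differences were 0.24, 0.24 and 0.57, with a mean of 0.35 (blocked 95% interval 0.13 to 0.57), and the value was 0.18 without empty vector replicate 3. Limma's adjusted p was 0.998 without the block and 0.156 with it. Kmt2d, which marks enhancers by methylation of the same lysine, averaged 23.0 ± 2.94 FPKM with Blimp-1 and 20.7 ± 1.71 FPKM with the empty vector, a log2 difference of 0.14. Setd2, which trimethylates lysine 36 of histone H3 in gene bodies, averaged 17.9 ± 2.32 FPKM with Blimp-1 and 15.9 ± 3.41 FPKM with the empty vector, a difference of 0.18.

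The remaining methyltransferases lay closer to 0. Nsd1 and Whsc1, which dimethylate lysine 36, differed by 0.10 and 0.06 and were higher with Blimp-1 in every pair. Suv39h1, one of the enzymes that place the heterochromatic methyl mark on lysine 9, averaged 16.7 ± 6.29 FPKM with Blimp-1 and 18.0 ± 6.47 FPKM with the empty vector. It was lower in every pair, by -0.16, -0.08 and -0.06. Its paralogue Suv39h2 was the least abundant of the 44 genes by mean, at 1.33 ± 0.263 FPKM with Blimp-1 and 1.42 ± 0.541 FPKM with the empty vector. Setdb1, another methyltransferase of lysine 9, differed by -0.02 and Dot1l, which methylates lysine 79, by 0.00, each with pairs of both signs.

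Of the 7 histone lysine demethylases, 4 were higher and 2 lower with Blimp-1 in every pair, and the differences lay between -0.14 and 0.19. Kdm5a, which removes methyl groups from lysine 4 of histone H3, averaged 17.6 ± 1.86 FPKM with Blimp-1 and 15.4 ± 2.94 FPKM with the empty vector, with pair differences of 0.16, 0.09 and 0.33 (blocked adjusted p = 0.230). Its relative Kdm5b differed by 0.13. The lysine 27 demethylases went in different directions by sign. Kdm6a (Utx) averaged 19.6 ± 2.13 FPKM with Blimp-1 and 17.5 ± 2.96 FPKM with the empty vector, and Kdm6b (Jmjd3) averaged 7.16 ± 2.04 FPKM with Blimp-1 and 8.07 ± 2.70 FPKM with the empty vector. Kdm6a was higher and Kdm6b lower in all 3 pairs, and neither was called. Kdm3a, a demethylase of lysine 9 and the most abundant of the 7, averaged 49.7 ± 2.36 FPKM with Blimp-1 and 53.5 ± 2.55 FPKM with the empty vector. Kdm4a, which acts on lysines 9 and 36, and Kdm2b, which brings a form of PRC1 to CpG islands, each differed by 0.06.

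Hdac7, a class IIa deacetylase that is abundant in thymocytes and T cells, had the highest level of the 44 genes, with 209, 142 and 188 FPKM in Blimp-1 replicates 1, 2 and 3, against 193, 135 and 168 FPKM in empty vector replicates 1, 2 and 3. Replicate 2 was lowest in both vectors, and each Blimp-1 library was above its partner by 0.06 to 0.16. The mean difference was 0.11 (blocked adjusted p = 0.325). Sirt1, an NAD-dependent deacetylase, averaged 8.52 ± 0.363 FPKM with Blimp-1 and 7.20 ± 1.07 FPKM with the empty vector, with pair differences of 0.25, 0.08 and 0.34 (blocked adjusted p = 0.207). For the main Sirt1 transcript alone, with 78.8% of the FPKM, the difference was -0.03, of the opposite sign. Hdac4 averaged 7.20 ± 2.26 FPKM with Blimp-1 and 6.31 ± 2.78 FPKM with the empty vector. Hdac5, like Hdac4 a class IIa enzyme, differed by -0.01, with pairs of both signs.

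Kat2a (Gcn5), the acetyltransferase of the SAGA coactivator complex, had the largest negative difference of the 44. Its values were 7.85, 10.2 and 10.1 FPKM in Blimp-1 replicates 1, 2 and 3, against 10.3, 10.5 and 18.6 FPKM in empty vector replicates 1, 2 and 3. The vectors did not overlap, but 10.2 and 10.3 FPKM were nearly equal, and empty vector replicate 3 was far above the rest. The pair differences were -0.35, -0.05 and -0.82, with a mean of -0.41 and an adjusted p of 0.998 without the block and 0.218 with it. With both libraries numbered 3 left out of the blocked fit, Kat2a was at -0.20. It was at -0.15 without the block when only empty vector replicate 3 was left out. That library also stood apart on the first principal component and had the lowest estimated depth, and the part of either in the Kat2a value was not tested.

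The other acetyltransferases differed less. Kat2b (Pcaf), the paralogue of Kat2a, averaged 16.8 ± 1.92 FPKM with Blimp-1 and 18.4 ± 2.33 FPKM with the empty vector and was lower in every pair, by -0.11, -0.15 and -0.12. Ep300 and Crebbp, the coactivators that acetylate enhancer histones, differed by 0.09 and 0.05. Among the remodellers, Chd4, the ATPase of the NuRD complex, had 104, 97.3 and 90.5 FPKM in Blimp-1 replicates 1, 2 and 3, against 87.6, 89.3 and 77.0 FPKM in empty vector replicates 1, 2 and 3. All 3 Blimp-1 libraries were above all 3 empty vector libraries, and the pair differences of 0.25, 0.12 and 0.23 averaged 0.20 (SE 0.12). Limma's adjusted p was 0.998 without the block and 0.185 with it. The SWI/SNF ATPases Smarca4 (Brg1) and Smarca2 (Brm) differed by -0.06 and -0.08, and the subunit Arid1a by 0.04.

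Cbx3 and Cbx5, heterochromatin proteins that bind methylated lysine 9, showed little difference. Cbx3 had 138, 119 and 150.5 FPKM in Blimp-1 replicates 1, 2 and 3, against 132, 118 and 149 FPKM in empty vector replicates 1, 2 and 3. The order of the numbers, 3 above 1 above 2, was the same in both vectors, and the mean difference was 0.03. The blocked 95% interval of Cbx3 was -0.11 to 0.18. Cbx5 averaged 19.6 ± 2.71 FPKM with Blimp-1 and 18.8 ± 4.29 FPKM with the empty vector, a difference of 0.07.

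**Figure D2:**
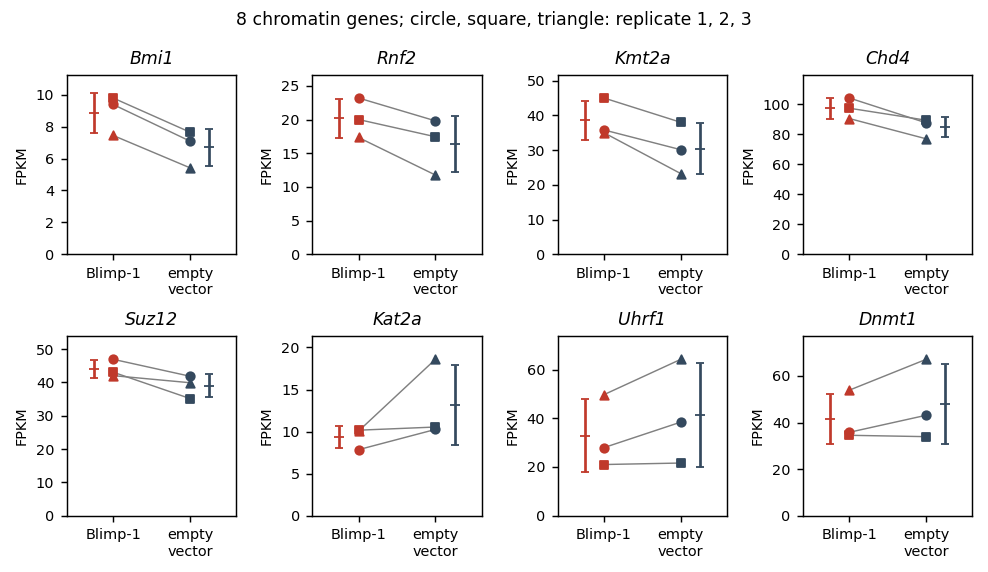
FPKM of 8 chromatin genes in the 3 Blimp-1 libraries (left in each panel) and the 3 empty vector libraries (right), with lines joining libraries of equal replicate number and bars giving the mean ± SD. Bmi1, Rnf2, Kmt2a, Chd4 and Suz12 slope down towards the empty vector in every pair, Kat2a and Uhrf1 slope up, and Dnmt1 slopes up in pairs 1 and 3.

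By level, the 44 genes spanned a mean over all 6 libraries of 1.38 FPKM for Suv39h2 to 173 FPKM for Hdac7. After Hdac7 came Cbx3 (134 FPKM), Chd4 (91.0 FPKM) and Ezh2 (70.2 FPKM). FPKM is scaled to transcript length, so these levels can be set beside each other. Ezh2 was above Ezh1 in every library, while Dnmt1 was above Dnmt3a and Dnmt3b in every library. No member was listed at 0 in any library.

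**Figure D3:**
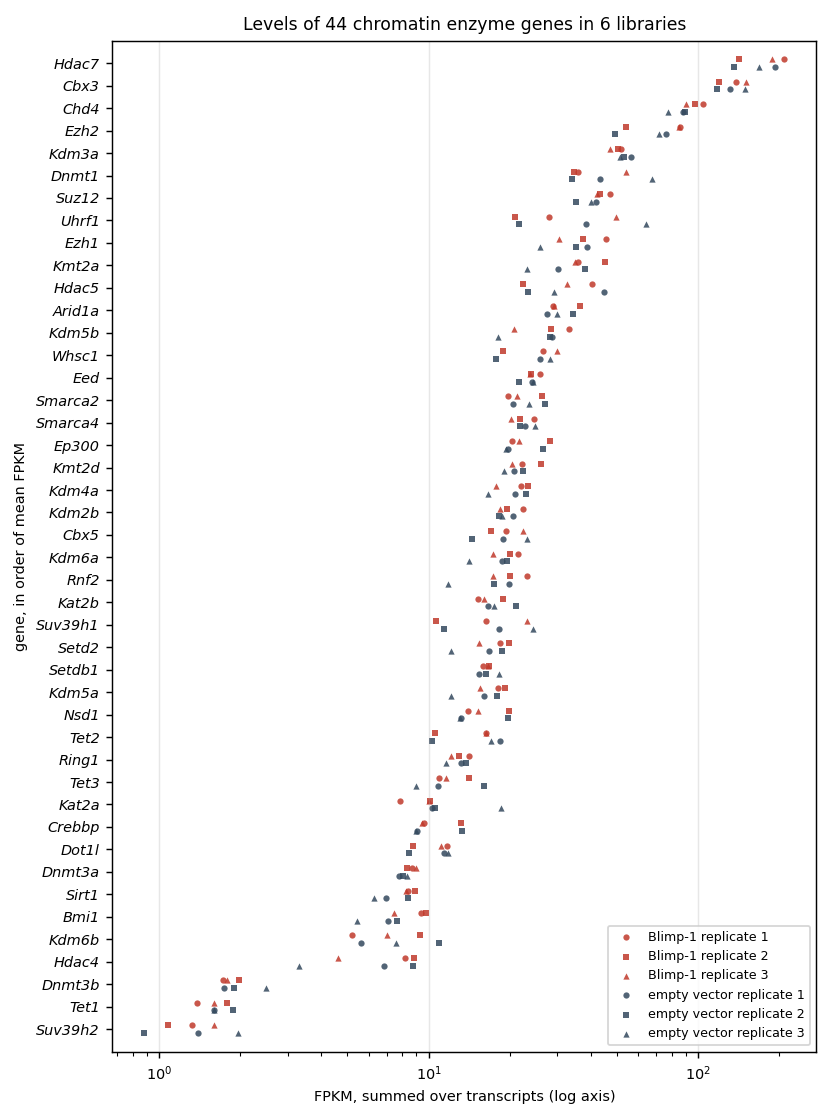
FPKM on a log axis of the 44 genes in all 6 libraries, ordered by mean, with Blimp-1 libraries in red above empty vector libraries in blue and symbols for the replicate number. The order of the genes runs from Hdac7 (173 FPKM) to Suv39h2 (1.38 FPKM), and the red and blue symbols of most genes intermingle.

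In most of these genes, as in most genes tested, the replicate number took a larger share of the spread than the vector. The number has more levels than the vector, which alone favours a larger share for it. The median share of a member's sum of squares on the log2 scale was 84.0% for the replicate number and 6.36% for the vector, against 75.5% and 9.57% over all genes tested. The number took a larger share than the vector in 39 of 44 members (88.6%), beside 90.1% of all genes. The exceptions were Suz12, Bmi1, Dnmt3a, Sirt1 and Chd4. The distance between the highest and the lowest number, averaged over the vectors, had a median of 0.42 among the members and 0.36 over all genes tested. Among the members it reached 1.37 in Uhrf1, 1.04 in Suv39h1, 0.995 in Hdac4 and 0.86 in Hdac5.

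The members, like all genes tested, split into groups of opposite order by replicate number. Both libraries numbered 3 lay above both numbered 2 in 13 members (29.5%, beside 30.0% of all genes), which were Ezh2, Dnmt1, Dnmt3a, Uhrf1, Tet2, Suv39h1, Suv39h2, Dot1l, Whsc1, Hdac5, Hdac7, Cbx3 and Cbx5. Both libraries numbered 2 lay above both numbered 3 in 22 members (50.0%, beside 37.9% of all genes), among them Kmt2a, Kmt2d, Nsd1, Setd2, Tet3, Ep300, Crebbp, Kdm6a, Kdm6b and Bmi1. A list of 26 genes of DNA replication and S phase entry, such as Mcm2, Pcna and Ccne1, had the first order in 25 of 26. On this list 23 of 26 also had both libraries numbered 3 above both numbered 1 (88.5%, beside 31.5% of all genes). Of the 13 members, Ezh2, Tet2, Dot1l, Hdac5 and Hdac7 instead had their highest mean in number 1. The summed level of the list was 595, 543 and 955 FPKM in Blimp-1 replicates 1, 2 and 3, against 770, 544 and 1183 FPKM in empty vector replicates 1, 2 and 3. The median log2 difference of the list was -0.24, with medians of -0.36, 0.00 and -0.29 in pairs 1, 2 and 3, and 0 of 26 were called with or without the block. With the block 12 of 26 were lower at an unadjusted p below 0.05 (46.2%, beside 10.7% of all genes) and none was higher. With both libraries numbered 3 left out of the blocked fit, 7 of 26 were called lower (26.9%, beside 6.2% of all genes). Uhrf1, with pair differences of -0.45, -0.04 and -0.36, and Dnmt1, with -0.26, 0.02 and -0.31, had their smallest difference in the same pair as the list, while Ezh2 was higher with Blimp-1 in every pair. Estimated depth was also closest in pair 2, at 50.0 M reads with Blimp-1 and 41.5 M with the empty vector. In the same order it was 46.3 and 19.5 M in pair 1 and 36.6 and 18.6 M in pair 3. The part of depth, or of the replication genes' levels, in the values of Uhrf1 and Dnmt1 was not tested. The part of the B cell and NK cell genes, highest in replicate 2, in the order of the 22 members above was not tested either.

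**Figure D4:**
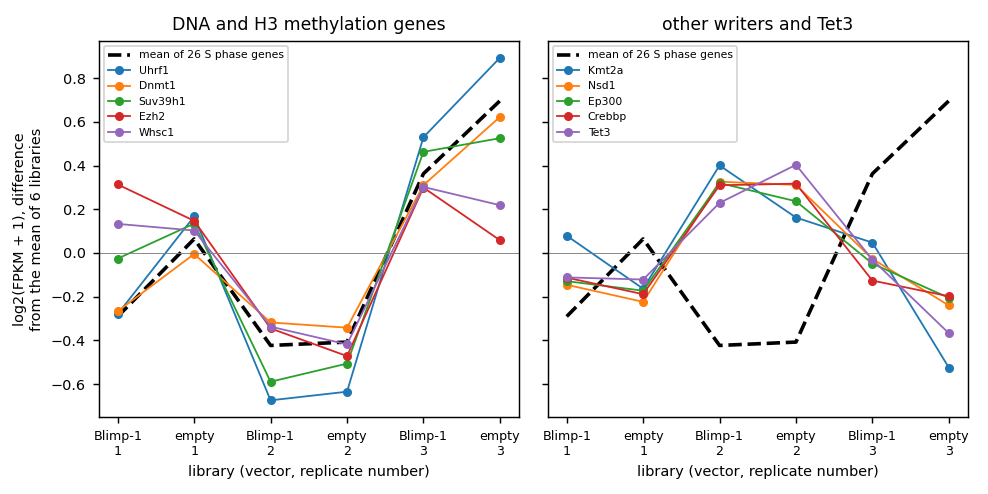
Level on the scale log2(FPKM + 1) as the difference from the gene's mean over the 6 libraries, for libraries ordered by replicate number with Blimp-1 left of the empty vector. On the left, Uhrf1, Dnmt1, Suv39h1, Ezh2 and Whsc1 are lowest in replicate 2, as is the dashed mean of 26 S phase genes, and on the right Kmt2a, Nsd1, Ep300, Crebbp and Tet3 are highest in replicate 2.

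Promoter sequence was read for the members because several, like most of the S phase genes, had both libraries numbered 3 above both numbered 2. Promoters of S phase genes are known targets of E2F factors. A further reason was that Blimp-1 itself binds DNA. RefSeq promoters of GRCm38.p6 were found for 40 of 44 members, all but Nsd1, Whsc1, Kdm5a and Kdm6b, and the 250 bases before each start were searched on both strands. The E2F letters TTTGGCGC, TTTCGCGC, TTTCCCGC and TTTGCCGC, any of which counts, occurred in 7 of the 40 members (17.5%) and in 2.16% of the 27025 genes in the table. Members have more annotated starts per gene, and per promoter the share was 7 of 59 (11.9%), beside 1.86% of 32851. The letters AGNGAAAG, a core of the Blimp-1 motif, occurred in 1 of the 40, Uhrf1, and in 8.42% of genes, or 1 of 59 member promoters (1.69%) and 7.30% of all. All the members reached the level for testing, while the 27025 genes were not limited to genes that did. These shares therefore compare unlike sets, and no share among tested genes was taken. The 8 windows of 60 bases are given 5′ to 3′ on the strand of the gene, with the match in capitals, which reads as the reverse complement where it lies on the other strand.
Uhrf1, E2F, chr17:56304102-56304161, plus strand: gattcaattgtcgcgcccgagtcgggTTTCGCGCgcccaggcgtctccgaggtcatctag
Dnmt1, E2F, chr9:20952809-20952868, minus strand: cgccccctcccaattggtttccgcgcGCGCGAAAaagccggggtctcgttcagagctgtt
Suv39h1, E2F, chrX:8074392-8074451, minus strand: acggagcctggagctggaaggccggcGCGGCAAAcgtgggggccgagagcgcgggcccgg
Kat2a, E2F, chr11:100712493-100712552, minus strand: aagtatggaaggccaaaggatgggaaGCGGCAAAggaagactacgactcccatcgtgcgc
Cbx3, E2F, chr6:51470422-51470481, plus strand: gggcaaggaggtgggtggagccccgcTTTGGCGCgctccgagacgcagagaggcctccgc
Suz12, E2F, chr11:79992861-79992920, plus strand: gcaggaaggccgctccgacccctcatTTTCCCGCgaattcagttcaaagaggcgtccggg
Arid1a, E2F, chr4:133754007-133754066, minus strand: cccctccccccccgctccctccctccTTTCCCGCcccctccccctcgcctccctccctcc
Uhrf1, Blimp-1, chr17:56303182-56303241, plus strand: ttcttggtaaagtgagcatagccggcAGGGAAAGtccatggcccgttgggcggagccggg
A match is a run of letters and not a shown binding site. The Suv39h1 window lies at one of a pair of RefSeq starts, and its first transcribed bases were not found among the GENCODE transcripts, so that start is uncertain, as is the count of Suv39h1 here. Of the 7 genes with E2F letters, Uhrf1, Dnmt1, Suv39h1 and Cbx3 had both libraries numbered 3 above both numbered 2, whereas Suz12, Kat2a and Arid1a did not. That order was found in 29.5% of the 44 members and 30.0% of all genes tested. Among the members searched, Ezh2, Dnmt3a, Tet2, Suv39h2, Dot1l, Hdac5, Hdac7 and Cbx5 had it without E2F letters. A link between letters and order was not tested. Uhrf1 holds its E2F and its Blimp-1 letters at different annotated starts. The files' own build is mm9, and these coordinates are those of the RefSeq table.

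The table lists more than 1 transcript for 21 of the members and 88 transcripts for the 44 genes together. At the level of transcripts, 71 of them reached 1 FPKM in 3 libraries. Of these, 5 had all Blimp-1 values above all empty vector values (7.04%, beside 2.37% of the 13222 transcripts at that level) and 1 had all below (1.41%, beside 2.53%). Chd4, with a single transcript, and the main transcript of Suz12 were among the 5. The other 3 belonged to Dnmt1, Kdm2b and Kdm3a, and the 1 lower transcript was the main one of Kdm3a. These are named because they did not overlap, after their values were seen.

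In Dnmt1 the transcripts moved in opposite ways. A transcript with 33.6% of the FPKM of Dnmt1 had 20.3, 20.3 and 21.7 FPKM in Blimp-1 replicates 1, 2 and 3, against 11.8, 15.3 and 0.863 FPKM in empty vector replicates 1, 2 and 3. The most abundant Dnmt1 transcript had 13.0, 13.6 and 21.6 FPKM in Blimp-1 replicates 1, 2 and 3, against 22.8, 14.3 and 38.2 FPKM in empty vector replicates 1, 2 and 3. The first was higher with Blimp-1 in every pair and the second lower in every pair, and the widest gap of both was in pair 3. Another Dnmt1 transcript, with 18.8% of the FPKM, was also lower in every pair. Its values were 1.51, 0.00932 and 10.0 FPKM in Blimp-1 replicates 1, 2 and 3. In empty vector replicates 1, 2 and 3 they were 7.70, 3.90 and 27.4 FPKM. In Kdm2b a minor transcript had 5.002, 3.71 and 4.29 FPKM in Blimp-1 replicates 1, 2 and 3, against 2.47, 2.14 and 0.998 FPKM in empty vector replicates 1, 2 and 3. In Kdm3a the minor transcript had 6.74, 7.55 and 7.33 FPKM in Blimp-1 replicates 1, 2 and 3, against 6.05, 5.48 and 3.77 FPKM in empty vector replicates 1, 2 and 3. The main Kdm3a transcript had 44.8, 43.1 and 39.7 FPKM in Blimp-1 replicates 1, 2 and 3, against 50.2, 47.6 and 47.5 FPKM in empty vector replicates 1, 2 and 3. Transcripts of a gene can share many of their reads, which were single reads of 50 cycles, so the split between them is an estimate, and empty vector replicates 1 and 3 had the fewest reads. The part of depth in these splits was not tested, and no test was run on transcripts.

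A wider set of 139 chromatin genes, the partners and relatives of the 44 in 9 lists, was described in the same way, and 136 of them were tested. As with the members, 0 of 136 were called with or without the block. Their median log2 difference was 0.03, all 3 pairs were higher with Blimp-1 in 47 (34.6%, beside 22.9% of all genes) and lower in 23 (16.9%, beside 22.8%). In the blocked fit 13 were higher and 8 lower at an unadjusted p below 0.05 (9.56% and 5.88%, beside 9.77% and 10.7% of all genes). No overlap between the vectors was found in 5, with Uhrf2, Sin3a and Atrx higher with Blimp-1 (2.21%, beside 2.29%) and Mbd2 and Sirt6 lower (1.47%, beside 2.34%).

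The 7 PRC2 and 16 PRC1 partners had median log2 differences of 0.00 and 0.06, against 0.18 and 0.31 for the 4 and 3 member subunits. The 0.31 is the value of Rnf2, which was 0.10 without empty vector replicate 3. The partners with the largest differences among those of the same sign in all pairs went in both directions. Aebp2, a PRC2 cofactor that binds nucleosomes, averaged 137 ± 27.6 FPKM with Blimp-1 and 117 ± 26.5 FPKM with the empty vector, a log2 difference of 0.22, while the accessory protein Phf19 averaged 4.38 ± 1.74 FPKM with Blimp-1 and 5.61 ± 1.86 FPKM with the empty vector, a difference of -0.31. In PRC1, Pcgf5, a relative of Bmi1, differed by 0.22 and Cbx8, a chromodomain subunit, by -0.24. Near Uhrf1, its paralogue Uhrf2 was higher by 0.27 without overlap, at 42.5, 40.1 and 39.0 FPKM in Blimp-1 replicates 1, 2 and 3, against 35.6, 34.7 and 30.4 FPKM in empty vector replicates 1, 2 and 3. On the same list Mbd2, which binds methylated DNA, was lower by sign and without overlap, at -0.24 (blocked adjusted p = 0.156), and was named after its values were seen. Hells, a remodeller needed for DNA methylation, differed by 0.26. None of these was called, the lowest adjusted p in the blocked limma fit being 0.154, for Uhrf2 and Hells.

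Among deacetylases and their complexes, Hdac11 differed by 0.36 and Gatad2b, a NuRD subunit like Chd4, by 0.35, each higher with Blimp-1 in every pair. Among methyltransferases Kmt2c, the close relative of Kmt2d, differed by 0.26 and Dpy30, a shared subunit of these complexes, by -0.18. Among demethylases Jmjd1c differed by 0.25 and Jmjd6 by -0.20, and among acetyltransferases Kat6a by 0.16 and Kat5 by -0.15. The SWI/SNF subunit Smarcb1 differed by -0.24 and the remodeller Chd1 by 0.23, while Trim28, a corepressor, and Cbx1, a relative of Cbx3, differed by 0.10 and -0.10. Each of these had the same sign in all 3 pairs and an adjusted p of 0.998 without the block. The rule of equal signs left out the highest difference among the 136 genes, 0.51, which was on the list of Trim28 and Cbx1. Some genes for enzymes known as partners of Blimp-1, not a full set of them, were added outside the rule, after their values were seen. Of these, Ehmt2 (G9a) averaged 71.2 ± 7.595 FPKM with Blimp-1 and 70.6 ± 5.52 FPKM with the empty vector, and Kdm1a (LSD1) 25.3 ± 2.13 FPKM with Blimp-1 and 24.8 ± 0.694 FPKM with the empty vector. Hdac2 averaged 24.6 ± 2.36 FPKM with Blimp-1 and 25.5 ± 1.86 FPKM with the empty vector. Hdac1 averaged 67.8 ± 9.01 FPKM with Blimp-1 and 78.1 ± 13.0 FPKM with the empty vector and was lower in every pair, by -0.19, -0.14 and -0.26 (blocked adjusted p = 0.185).

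With both libraries numbered 3 left out of the blocked fit, which leaves 1 residual degree of freedom and leans on the spread shared across genes, Bmi1 (0.34, adjusted p = 0.00932) and Kmt2a (0.24, adjusted p = 0.0345) were called higher with Blimp-1. That is 2 of 44 members (4.55%), beside 4.95% of all genes called higher in that fit, and 0 of 44 were called lower, beside 6.2% of all genes. Bmi1 and Kmt2a were called in neither fit of all 6 libraries.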

How the data were processed

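RNA was sequenced from 6 libraries, 3 per vector. The authors deposited 1 table with an FPKM value for each of 29868 RefSeq transcripts and each library. The table's header does not name the unit, which was read from the values and from the quantifier. Listed without roles in the submitters' processing notes are the build mm9 and the tools CASAVA 1.8.2, Cufflinks 2.2 and Partek 6.6. Not given in the sources used here are the aligner, the annotation release, the strand setting and any filter. FPKM shows shares of the RNA pool, and reads of paralogues and of overlapping or antisense genes may have been split or shared by the authors' quantification.

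Transcripts were summed per gene with names from RefSeq (GRCm38.p6): 28736 matched by accession and 428 by symbol, 112 kept their deposited symbol, and 592 without a name were left out of the tests. All 44 symbols were found. Depth was estimated from the lowest FPKM steps of genes, with an assumed fragment length of 200 bases, so it is approximate. Means ± SD are of FPKM.

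Genes that reached 1 FPKM in 3 or more libraries, 10840 in number, entered a limma fit (limma 3.58.1, R 4.3.3) of log2(FPKM + 1) on the vector alone. The fit used a mean-variance trend, and p-values were adjusted over all 10840 genes by the Benjamini-Hochberg method, with a threshold of 0.05. Intervals are 95% intervals from limma. The script was tested on simulated data. Both vectors have replicates numbered 1 to 3. The deviation of each library from its vector's mean correlated at 0.79, 0.81 and 0.70 with that of the library of equal number and at -0.54 to -0.25 between the others, so the numbers were taken to pair the libraries, although no label says what a number stands for. A second fit had the number as a block, and its value stands beside the first where both are given. If the replicates are not separate cultures, p-values measure only the spread between these samples.

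The members and the lists of other genes were chosen with earlier results of these data known. Every library was printed for members with no overlap between the vectors, with the same sign in all 3 pairs and a mean log2 difference of at least 0.25 in size, or among the 3 most abundant. Each list of other genes gave up to 2 genes with the largest difference among those of the same sign in all pairs. Alternatives were a pseudocount of 0.1 or 0.01, a filter of 5 FPKM or none, median-ratio scaling, the block, the highest transcript in place of the sum, each library left out, and the block with each pair left out. After the data were seen, transcripts by deposited symbol alone and the block with scaling were added. The level of 1 cell type marker is not reported here.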

Additional observations from a re-analysis of the deposited data

How the results depend on the processing

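Of the 18 alternatives, the blocked fit without both libraries numbered 3 was the only one that called a member. It called 2 members, 6 other chromatin genes higher (Aebp2, Uhrf2, Hells, Hdac11, Ncor1 and Gatad2b) and 1 lower (Phf19), and 537 genes higher and 672 lower in all, and the cause was not tested. Among all genes, the replicate block gave 1 higher and 1 lower, as it did with median-ratio scaling. Median-ratio scaling alone gave 1 higher. The block gave 1 higher and 2 lower without the libraries numbered 1, and 7 higher and 21 lower without those numbered 2. With single libraries left out, genes called higher numbered 0 to 1, and the members' median log2 difference was 0.0233 to 0.0784, lowest without Blimp-1 replicate 1 and also lower without empty vector replicate 3 (0.0373). Of 787 member values under the alternatives, 778 moved by less than 1 SD of the replicates, 7 moved by more and 2 were newly called. The sign held under all 18 in 14 members, including Bmi1 (0.23 to 0.47), Kmt2a (0.18 to 0.52), Rnf2 (0.10 to 0.46), Suz12 (0.10 to 0.23), Chd4 (0.13 to 0.25) and Kat2a (-0.59 to -0.15), and changed under at least 1 in the other 30, such as Uhrf1 (-0.67 to 0.09), Dnmt1 (-0.54 to 0.08) and Ezh2 (-0.01 to 0.40). With 1 library left out and no block, which leaves the replicate numbers unequal between the vectors, 4 to 14 members changed sign. With a whole pair left out of the blocked fit, 2 to 6 did. Taking the highest transcript in place of the sum changed the sign of 9 members, for example Smarca4, at 0.22, Hdac5, at 0.35, and Sirt1, at -0.03. The blocked interval of a member had a median half-width of 0.17, so a smaller difference cannot be told from 0 for such a member. Depth is an estimate, and the shallowest library had about 18.6 reads per kilobase at 1 FPKM.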
